A study of Mus musculus with 6 samples.

Results

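Translation initiation factor genes are described here through their splicing in N2a (Neuro-2a) cells, an established line from a mouse neuroblastoma. They were taken as all events of the deposited splicing table whose gene symbol begins with Eif and a digit 1 to 6, without pseudogene symbols. The rule gave 265 events in 47 genes, of 45595 events in 9594 genes in the whole table, and it used no measured value. Of the 265 events, 196 were skipped exons, 31 were pairs of mutually exclusive exons, 17 were alternative acceptor sites, 13 were retained introns and 8 were alternative donor sites. Eif4g1 had 25 events, Eif4g3 23, Eif4a2 21 and Eif4enif1 19, the 4 highest numbers among the 47 genes.

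The labels describe 3 libraries of N2a cells in which hnRNP DL was knocked out (hnRNP DL-/-) and 3 of wild-type N2a cells, made from total RNA and given no other agent. The labels leave unsaid how the knockout was made and whether it is 1 clone. They also do not say whether each library is a culture of its own, so the p-values here speak only for the spread of these 6 libraries, which may be technical. The study asked how RNA splicing differs between knockout and control cells. The deposited table calls its sides sample 1 and sample 2, with 3 libraries each, and neither a label nor a header ties a side to a genotype. They are called set 1 and set 2 here, no genotype was inferred, and each difference is set 1 minus set 2.

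Over all events the libraries held 16707466, 14037425 and 13573870 junction reads in set 1, and 18185394, 14245004 and 13501749 in set 2. Hnrnpdl, the gene knocked out in the study, had 2014, 1806 and 1760 junction reads in set 1 and 2569, 2146 and 2034 in set 2, a log2 ratio of -0.22 ± 0.09 (SE; limma, adjusted p = 0.392). In a principal component analysis of junction totals, set 1 library 1 stood apart from its own set, with a score of 5.83 on the first component (40.1% of the variance) against -18.35 and -22.01 for the other set 1 libraries, while the set 2 libraries lay at 18.01, 8.84 and 7.68. Of 14 markers of neuroblastoma cells, 5 had events in the table (Chga, Dbh, Elavl4, Gap43 and Map2). Mbp and Pecam1, markers of other cell types, had at most 8 and 15 reads in any library. Dbh was the 1 marker called, with a log2 ratio of -2.37 (limma, adjusted p = 0.00347), with 21, 6 and 5 reads in set 1 and 88, 61 and 56 in set 2. Gap43 had a log2 ratio of -0.94 (limma, adjusted p = 0.339). Its libraries overlapped through set 1 library 1, with 2064, 600 and 455 reads in set 1 and 2279, 1726 and 1129 in set 2. The log2 ratio was 0.28 for Map2, 0.02 for Elavl4 and -0.01 for Chga, and the median of the 5 markers was -0.01. The summed level of the 5 markers was 455.2 to 756.5 CPM (junction counts relative to each library's total) in set 1 and 639.9 to 760.6 CPM in set 2, highest in library 1 within set 1. In bulk RNA, fewer cells of a type and less RNA per cell cannot be told apart. The part that the marker difference and the library standing apart have in the results was not tested; values without that library are given for the events called in the authors' table and for other named results that move by over 1.5 times without it.

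Initiation brings the small ribosomal subunit with its initiator tRNA to the capped end of an mRNA and moves it to the start codon. The cap is bound by eIF4E, which joins the scaffold eIF4G and the helicase eIF4A; eIF4G in turn contacts eIF3 on the ribosomal subunit, and eIF2 carries the initiator tRNA in its GTP-bound form. Regulation acts mainly on cap binding, through the 4E-binding proteins, and on eIF2, through kinases that phosphorylate its alpha subunit. In neurons, very short exons (microexons) of the eIF4G genes are known to be included under the control of the splicing factor Srrm4.

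The exons below are those on which the results turn. Each is shown 5′ to 3′ on the strand of the gene, with the alternative part in capitals and up to 30 bases of the neighbouring exons of an annotated transcript in lower case (GENCODE vM21, GRCm38); introns are not shown. The Eif4g1 microexon has 21 bases (chr16:20674786-20674806, plus strand), and a 21-base exon of its paralogue Eif4g3 lies at chr4:138095909-138095929 (plus strand). They were identical at 16 of 21 positions (76.2%), including the first 11, and differed by G12A, T13C, T15C, C16A and G18C, with the Eif4g1 base first and positions counted from the exon's 5′ end. The other Eif4g3 exon has 33 bases (chr4:138087533-138087565, plus strand), and the Eif4enif1 exon 72 (chr11:3233988-3234059, plus strand). All 4 are coding and keep the reading frame.
Eif4g1 21-base exon: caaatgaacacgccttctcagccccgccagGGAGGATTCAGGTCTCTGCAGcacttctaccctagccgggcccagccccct
Eif4g3 21-base exon: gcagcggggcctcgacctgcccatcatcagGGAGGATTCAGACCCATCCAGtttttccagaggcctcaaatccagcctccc
Eif4g3 33-base exon: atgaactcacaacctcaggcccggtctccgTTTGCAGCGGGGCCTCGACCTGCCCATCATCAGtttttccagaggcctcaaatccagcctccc
Eif4enif1 72-base exon: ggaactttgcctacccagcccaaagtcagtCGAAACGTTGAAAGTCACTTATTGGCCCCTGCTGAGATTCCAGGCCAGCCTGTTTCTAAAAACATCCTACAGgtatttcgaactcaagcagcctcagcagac

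Another small change in the mature mRNA comes from acceptor sites 3 bases apart, where the choice adds or removes CAG at the start of an exon. Of the 17 alternative acceptors, 3 were of this kind, in Eif4g3 (chr4:138120346-138120348, plus strand), Eif4a2 (chr16:23108585-23108587, plus strand) and Eif4g1 (chr16:20681734-20681736, plus strand). They are shown because each was used at a middle level in all 6 libraries.
Eif4g3 acceptor: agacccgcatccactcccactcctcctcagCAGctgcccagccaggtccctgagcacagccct
Eif4a2 acceptor: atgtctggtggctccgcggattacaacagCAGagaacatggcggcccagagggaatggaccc
Eif4g1 acceptor: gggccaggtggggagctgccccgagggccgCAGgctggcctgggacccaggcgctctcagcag

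The splicing of most members was at 1 form in both sets. The inclusion level, the share of an event's length-adjusted junction reads that support the longer form or the table's included exon, was 0.9 or more for 184 of the 258 members with a mean of 20 or more reads (71.3%), against 65.2% of all such events. It lay between 0.1 and 0.9 for 46 members (17.8%, against 22.7% of all events) and was 0.1 or less for 28 (10.9%, against 12.1%). Of these 46, 15 were skipped exons, 7.89% of the 190 tested, against 11.5% of all skipped exons. Others were pairs of mutually exclusive exons, whose middle level need not mean that an exon was left out. Of all 31 such pairs among the members, 21 had no annotated transcript of either form. The median size of the difference between the sets was 0.00233 for the members and 0.00833 for all events; the members were also read more deeply, with a median of 581 reads per library against 119. Skipped exons of a multiple of 3 bases made up 80 of 190 (42.1%), against 40.8% of all skipped exons. Among skipped exons between 0.1 and 0.9, that share was 9 of 15 (60%), against 52.9% of 3283.

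Few members differed between the sets, and none passed the test of this work. The authors' deposited table called 4 of 265 events (adjusted p under 0.05 and a difference of 0.10 or more; 1.51%), against 294 of all 45595 events (0.645%). They were the 21-base exon of Eif4g1, the 33-base exon of Eif4g3, a 79-base exon of Eif4e2 and the 72-base exon of Eif4enif1, all in genes of the cap-binding machinery or its regulators. A moderated quasi-binomial test, which uses the spread between libraries, called 0 of 258 members and 0 of 39419 events (0%), with an unadjusted p under 0.05 for 13 members (5.04%) and 3.37% of all events. On simulated skipped exons moved by 0.1 the quasi-binomial test found 7 of 50, so its lack of calls does not show equal levels. Limma on logit inclusion levels also called 0 members, with an unadjusted p under 0.05 for 7 (2.71%, against 2.99% of all events). For 18 members no set 1 library overlapped the set 2 libraries (6.98%; 9 higher and 9 lower in set 1), against 5.55% of all events. A difference of 0.10 or more, with or without a call, was found for 5 members (1.94%), against 2.63% of all events.

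**Figure D1:**
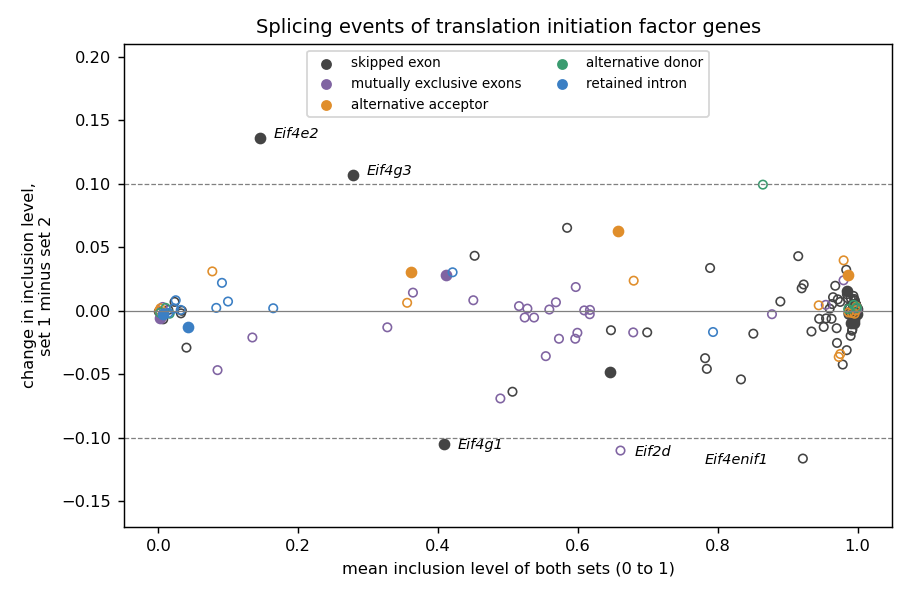
Change in inclusion level (set 1 minus set 2, vertical axis) against the mean inclusion level of both sets (0 to 1, horizontal axis) for the 258 member events with a mean of 20 or more reads; filled points are events whose libraries do not overlap between the sets, colours give the kind of event and dashed lines mark a change of 0.10. Most points lie near 0 or 1 on the horizontal axis with little change, and 5 events are past the dashed lines, in Eif4e2, Eif4g3, Eif4g1, Eif2d and Eif4enif1. The Eif2d event is a pair of mutually exclusive exons with no annotated transcript of either form.

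The 10 genes of the cap-binding complex and helicase held 101 events, of which 97 were tested, 11 did not overlap between the sets (5.55% of all tested events did not), and 3 of the 101 were called in the authors' deposited table (0.645% of all events were). Eif4g1 encodes the main eIF4G scaffold. The level of its 21-base microexon was 0.423, 0.288 and 0.356 in set 1, against 0.455, 0.466 and 0.460 in set 2. All set 1 libraries lay below all set 2 libraries, and the spread was wider in set 1. The means were 0.356 ± 0.0675 in set 1 and 0.460 ± 0.0055 in set 2 (SD, n = 3 each), a difference of -0.1047. The exon was read deeply, with 464, 374 and 386 inclusion reads and 557, 817 and 616 skipping reads in set 1, against 502, 580 and 543 inclusion reads and 531, 586 and 562 skipping reads in set 2. The quasi-binomial test gave an adjusted p of 0.745 (unadjusted p = 0.00252). In the authors' deposited table the adjusted p was 0.0433, from another test that was not adjusted jointly over all kinds of event. Without set 1 library 1 the difference was -0.1385 and the adjusted p 0.298, and leaving out each library in turn gave -0.1385 to -0.0705. The exon is included in 5 annotated transcripts and skipped in 8.

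Eif4g3, which encodes the second large eIF4G, had the 33-base exon at 0.310, 0.322 and 0.362 in set 1 and at 0.263, 0.183 and 0.227 in set 2. Here the set 1 libraries all lay above the set 2 libraries, the opposite direction to the Eif4g1 microexon. The mean level was 0.331 ± 0.0272 in set 1 and 0.224 ± 0.0401 in set 2 (SD, n = 3 each), a difference of 0.107. It rests on 88, 85 and 78 inclusion reads in set 1 and 73, 45 and 45 in set 2. The adjusted p was 0.745 in the quasi-binomial test (unadjusted p = 0.0164) and 0.0322 in the authors' deposited table; without set 1 library 1 the difference was 0.1177, and over all left-out libraries 0.0864 to 0.1264. The 21-base exon of Eif4g3, the counterpart of the Eif4g1 microexon in sequence, was at a much lower level. In the event with the 33-base exon as the upstream exon of both forms, it had levels of 0.032, 0.032 and 0.013 in set 1 and 0.011, 0 and 0.153 in set 2. This event had a mean of 66.7 reads and overlapping libraries. In a second event with another upstream exon it had 0.011, 0 and 0 in set 1 and 0.010, 0 and 0.021 in set 2 (mean of 147.8 reads).

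Eif4e2 encodes 4EHP, a cap-binding protein that does not join eIF4G and is known for repressing translation. Its 79-base exon (chr1:87232403-87232481), partly coding and not a multiple of 3, had levels of 0.208, 0.292 and 0.141 in set 1 and 0.127, 0.070 and 0.035 in set 2. Each set 1 library lay above each set 2 library, by a narrow margin between the nearest ones. The mean of 0.214 ± 0.0757 in set 1 and 0.0773 ± 0.0464 in set 2 (SD, n = 3 each) gave the widest difference among the tested members, 0.1363. It rests on few reads, 14, 22 and 7 inclusion reads in set 1 and 8, 4 and 2 in set 2. The quasi-binomial adjusted p was 0.745 (unadjusted p = 0.0142), the authors' deposited table gave 0.0272, and without set 1 library 1 the difference was 0.1391. A second Eif4e2 exon, of 150 bases (chr1:87214346-87214495), was at 0.628, 0.615 and 0.625 in set 1 and 0.699, 0.643 and 0.670 in set 2, a difference of -0.048 (unadjusted p = 0.194) with no overlap between the sets.

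Eif4e encodes the main cap-binding protein. Its 64-base coding exon (chr3:138550263-138550326) was included at 0.993, 0.997 and 0.988 in set 1 and at 0.977, 0.987 and 0.967 in set 2. The sets stayed apart, but both were close to full inclusion, with 7, 2 and 9 skipping reads in set 1 and 26, 10 and 22 in set 2. The difference was 0.0157 (0.0155 without set 1 library 1), with an adjusted p of 0.745 in the quasi-binomial test (unadjusted p = 0.00596). The authors' deposited table listed it with 0.0117, which made it the 5th member past that threshold when no minimum difference was asked for (5 of 265, 1.89%, against 1.13% of all events). No annotated transcript skips this exon.

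**Figure D2:**
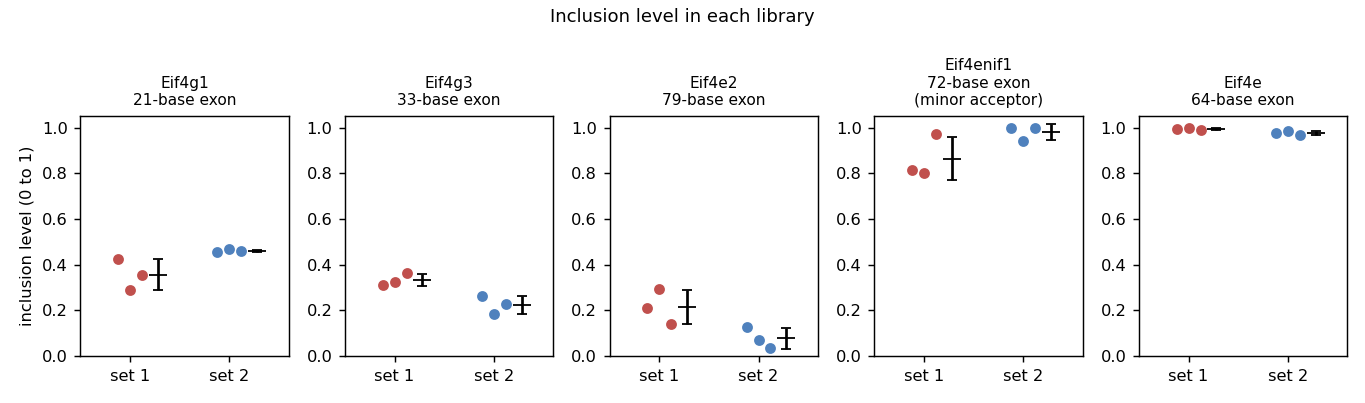
Inclusion level (0 to 1, vertical axis) in each library for the 5 members with an adjusted p under 0.05 in the authors' deposited table, with set 1 left of set 2; each point is a library and the bar gives the mean and SD of 3 libraries. The libraries of the sets do not overlap for Eif4g1, Eif4g3, Eif4e2 and Eif4e, and overlap for Eif4enif1, where set 1 lies at 0.816, 0.803 and 0.972 and set 2 at 1.0, 0.940 and 1.0.

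Eif4enif1 encodes 4E-T, which binds eIF4E, carries it into the nucleus and represses bound mRNAs in P-bodies. Its 72-base exon appears in several events, because the next exon has a pair of acceptors. In the event that pairs it with the acceptor at position 3234585, the level was 0.816, 0.803 and 0.972 in set 1 and 1.0, 0.940 and 1.0 in set 2. The sets overlapped, since set 1 library 3 lay above set 2 library 2. The difference was -0.1163 (means 0.864 ± 0.0940 in set 1 and 0.980 ± 0.0346 in set 2, SD, n = 3 each), and it turns on 9, 5 and 1 skipping reads in set 1 and 0, 3 and 0 in set 2. In set 1 no read joined the 72-base exon to this acceptor, so the 59, 30 and 52 inclusion reads there lie on the junction with the exon before, which does not tell the acceptor that follows. The 0 counts of 72 and 49 reads allow skipping shares of up to 4.17% and 6.12% of the reads (3 counts, counting error only). These limits are not adjusted for length and would be higher on the scale of the levels. The quasi-binomial adjusted p was 0.745 (unadjusted p = 0.0302); the authors' deposited table gave 0.00945, the smallest among the members, and without set 1 library 1 the difference was -0.0927.

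The same 72-base exon, counted with the more used acceptor at position 3234462, had levels of 0.513, 0.436 and 0.475 in set 1 and 0.523, 0.579 and 0.513 in set 2, with a mean of 224.7 reads. Its difference was -0.0637, with overlapping libraries (quasi-binomial unadjusted p = 0.216). It shares the reads joining the earlier exon to the 72-base exon with the event above, so its direction is not a separate measurement. Use of the acceptor at 3234585 was rare in either set. It was joined to the exon before the 72-base exon by 15 reads in set 1 and 3 in set 2, and to the 72-base exon by 0 reads in set 1 and 13 in set 2. Both routes together gave 15 reads in set 1 and 16 in set 2. The acceptor event read from the earlier exon (0.933, 0.951 and 0.991 in set 1; 1.0, 0.977 and 1.0 in set 2) shares its skipping reads with the first exon event, and its difference was -0.034, or -0.0215 without set 1 library 1. The acceptor event read from the 72-base exon was at 1.0 in each set 1 library and at 0.983, 0.948 and 0.984 in set 2 (quasi-binomial unadjusted p = 0.0067). It had 0 rarer-form reads in set 1 and 3, 8 and 2 in set 2. The 0 counts allow up to 1.35% to 1.91% of the reads per library. These limits are not adjusted for length, would be higher on the scale of the levels, and cannot be set against the set 2 levels.

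The 3-base acceptors were used at middle levels by both sets. In Eif4g3 the longer form had 0.675, 0.684 and 0.706 in set 1 and 0.609, 0.662 and 0.606 in set 2. These did not overlap, and the difference of 0.0627 had an unadjusted p of 0.0527 in the quasi-binomial test and an adjusted p of 0.424 in the authors' deposited table. Eif4a2, which encodes an eIF4A helicase abundant in brain, had 0.391, 0.362 and 0.375 in set 1 and 0.327, 0.352 and 0.358 in set 2, a difference of 0.0303 (unadjusted p = 0.291). In Eif4g1 the levels were 0.375, 0.370 and 0.332 in set 1 and 0.367, 0.334 and 0.357 in set 2, overlapping over a mean of 1313.7 reads.

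Other partly included exons of the cap-binding group were not called either. Eif4h, which stimulates the helicase, has a frame-keeping 60-base coding exon (chr5:134624441-134624500, minus strand) that was at 0.503, 0.467 and 0.452 in set 1 and 0.523, 0.402 and 0.367 in set 2. Eif4g2 encodes DAP5, an eIF4G relative without the eIF4E site, and its 114-base exon (chr7:111076280-111076393) was at 0.855, 0.830 and 0.841 in set 1 and 0.847, 0.871 and 0.862 in set 2. That event had the deepest coverage of the partly included ones in this group, 5869.8 reads on average, and its difference was -0.018 (unadjusted p = 0.238). A 107-base exon of Eif4a2, found in protein-coding and nonsense-mediated decay transcripts, had 0.592, 0.589 and 0.671 in set 1 and 0.532, 0.471 and 0.653 in set 2. A 71-base intron of Eif4a1, which encodes the main eIF4A, was retained at 0.025, 0.040 and 0.044 in set 1 and 0.052, 0.045 and 0.051 in set 2, without overlap and with a difference of -0.013 (unadjusted p = 0.0243), or -0.0072 without set 1 library 1. A 140-base exon of Eif4a2 (chr16:23109120-23109259) appears in 2 events. In the one with more reads (786.8 on average) its level was 0.9, 0.907 and 0.873 in set 1 and 0.857, 0.918 and 0.883 in set 2, overlapping; in the other (435.3 reads), whose forms match no annotated transcript, the mean level was 0.992 in set 1 and 0.999 in set 2, without overlap.

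**Figure D3:**
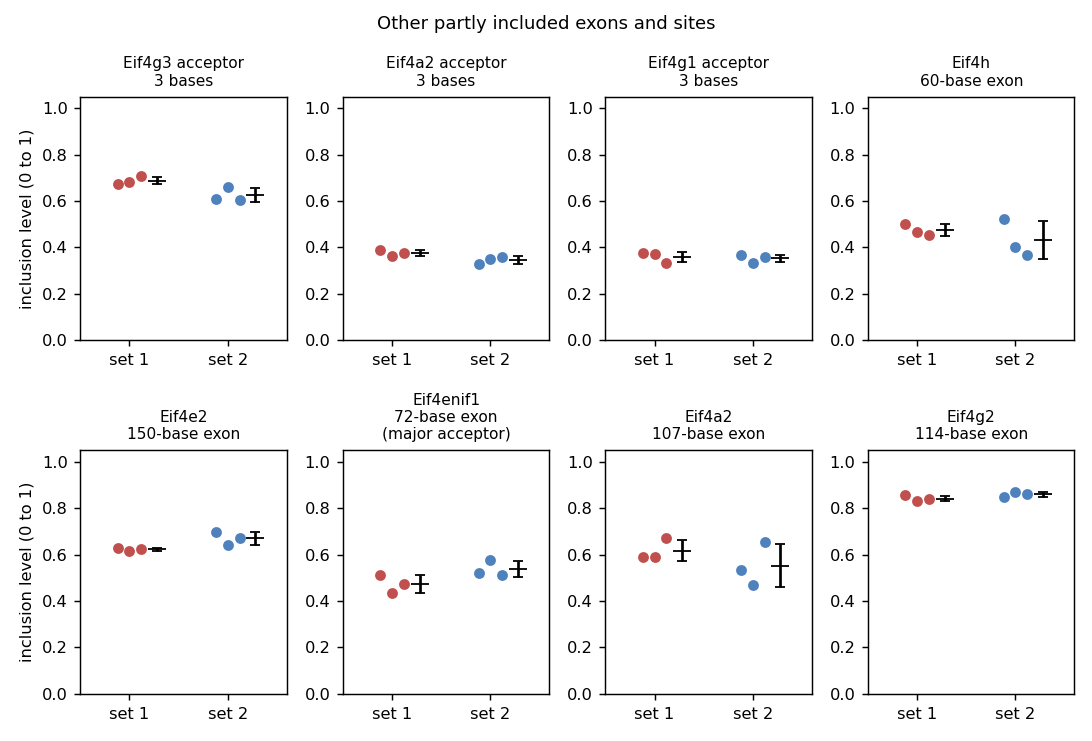
Inclusion level (0 to 1, vertical axis) in each library of 8 partly included exons and sites of the cap-binding genes and Eif4enif1, with set 1 left of set 2; each point is a library and the bar gives the mean and SD of 3 libraries. The sets lie apart for the acceptors of Eif4g3 and Eif4a2 and for the 150-base exon of Eif4e2, and overlap in the other 5 panels.

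The eIF3 subunits, which form the scaffold on the small ribosomal subunit, had the smallest median change of the role groups. Their 13 genes held 54 events, and over the 53 tested ones the difference ran between -0.017 and 0.028, with a median size of 0.000667. Of these, 42 were at a mean level of 0.9 or more, 3 did not overlap between the sets (5.55% over all tested events) and 1 had an unadjusted p under 0.05 (3.37% over all tested events). A 144-base exon of Eif3m (chr2:105001271-105001414) was included at 0.984, 0.988 and 0.986 in set 1 and 0.996, 0.99 and 1.0 in set 2, a difference of -0.0093 (unadjusted p = 0.0573). Eif3h had a pair of mutually exclusive exons at 0.414, 0.434 and 0.429 in set 1 and 0.385, 0.413 and 0.395 in set 2, a difference of 0.028 (unadjusted p = 0.110). A second Eif3h pair, the group's most read event at a middle level (4362.8 reads on average), has no annotated transcript of either form. Its mean levels were 0.616 in set 1 and 0.618 in set 2, a difference of -0.0027 that was 0.0065 without set 1 library 1. The level of such a pair gives the exon that the table counts as included. A middle level does not by itself show that either exon was left out of the mRNA, and this was not tested. Of the 31 mutually exclusive events among the members, 21 (67.7%) had no annotated transcript of either form.

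The genes of eIF2, its exchange factor eIF2B and the related Eif2a and Eif2d held 48 events, and 0 of the 47 tested ones kept the sets apart (5.55% over all tested events). Their differences ran between -0.11 and 0.0397, and 1 had an unadjusted p under 0.05 in the quasi-binomial test (3.37% over all tested events). It was an acceptor of Eif2b4, a subunit of eIF2B, whose 145 added bases (chr5:31192626-31192770) were at 0.095, 0.071 and 0.112 in set 1 and 0.06, 0.049 and 0.076 in set 2, overlapping (unadjusted p = 0.033). The lowest belonged to mutually exclusive exons of Eif2d, which encodes a factor able to deliver tRNA to the ribosome without eIF2. This pair, with no annotated transcript of either form, was at 0.694, 0.5 and 0.624 in set 1 and 0.689, 0.702 and 0.757 in set 2. The libraries overlapped there over a mean of 59.7 reads (unadjusted p = 0.119). The most deeply read event of these genes at a middle level was a pair of mutually exclusive exons of Eif2s3x, the X-linked gamma subunit of eIF2. This pair has no annotated transcript of either form. It averaged 0.591 in set 1 and 0.608 in set 2, a difference of -0.0173 that was 0.0159 without set 1 library 1. The 4 kinases that phosphorylate eIF2alpha, Eif2ak1 to Eif2ak4, had 10 events, 9 of them at 0.9 or more, with differences between -0.0423 and 0.007, 0 apart (5.55% over all tested events) and 0 with an unadjusted p under 0.05 in the quasi-binomial test (3.37%).

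The group labelled scanning and start codon choice held Eif1, Eif1a, Eif1ad, Eif1ax, Eif5 and Eif5b, whose roles were not tested. Its 6 genes had 19 events, all with enough reads to be compared, with differences between -0.022 and 0.0303. Of these, 2 did not overlap between the sets (5.55% over all tested events) and 0 had an unadjusted p under 0.05 in the quasi-binomial test (3.37%). One was a 62-base exon of Eif5, the factor that triggers GTP hydrolysis on eIF2, with 0.996, 0.989 and 0.987 in set 1 and 1.0 in each set 2 library. The 0 skipping reads in set 2 allow shares of up to 0.813%, 1.04% and 1.26% of the reads, without the length adjustment of the levels. Mutually exclusive exons of Eif5 had mean levels of 0.585 in set 1 and 0.607 in set 2, with overlapping libraries (0.569 to 0.594 in set 1 and 0.589 to 0.626 in set 2). Eif5a, named as an initiation factor and now known for its part in elongation, and Eif6, which keeps the large ribosomal subunit from joining early, held 12 events, 4 of them between 0.1 and 0.9. The most deeply read of these, a 94-base exon of Eif5a outside the coding sequence, had 0.659, 0.702 and 0.711 in set 1 and 0.803, 0.664 and 0.656 in set 2, overlapping, with a difference of -0.017 that was -0.0009 without set 1 library 1. The same exon in another event had far more reads, 6544, 6962 and 5974 in set 1 and 6565, 7006 and 5931 in set 2. There its mean level lay outside 0.1 to 0.9, so the middle level holds for the less read event only. An 18-base donor change in Eif5a, also outside the coding sequence, had 1.0, 0.9 and 0.843 in set 1 and 0.878, 0.729 and 0.838 in set 2 over a mean of 24.7 reads. Its difference was 0.0993, with overlapping libraries (quasi-binomial unadjusted p = 0.0354). Of the 12 events of Eif5a and Eif6, it was the 1 with an unadjusted p under 0.05 (3.37% over all tested events). Another 1 of the 12 did not overlap between the sets (5.55% over all tested events).

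Junction totals were compared next. The total of a gene is the inclusion and skipping reads of the gene's most read event, scaled to CPM by the library's sum over all genes, so expression and splicing of that event both move it. No member was called by limma on log2(CPM + 1) with an adjusted p under 0.05 (0 of 47, against 88 of 8285 genes, 1.06%), and 2 had an unadjusted p under 0.05 (4.26%, against 9.45%). The log2 ratios of the 47 genes ran between -0.44 and 0.20 with SEs of 0.09 to 0.25, and their median was -0.03, against 0.01 for all genes. Libraries of the sets did not overlap for 2 members (4.26%, against 14.1%), both lower in set 1.

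Those genes were Eif3l and Eif4e3. Eif3l, a subunit of eIF3, had 296.5, 269.6 and 259.5 CPM in set 1 and 384.9, 357.5 and 319.8 CPM in set 2. Its log2 ratio was -0.36 ± 0.10 (SE; limma, adjusted p = 0.154), and without set 1 library 1 it was -0.42 with an adjusted p of 0.0443. Eif4e3, another member of the eIF4E family, had 51.6, 46.0 and 53.6 CPM in set 1 and 57.6, 65.3 and 86.6 CPM in set 2, a log2 ratio of -0.44 ± 0.16 (limma, adjusted p = 0.334), and -0.46 without set 1 library 1. Among the 13 eIF3 genes, 5 had a positive and 8 a negative log2 ratio, and Eif3e had the second lowest, -0.24 ± 0.12 (limma, adjusted p = 0.610), or -0.36 without set 1 library 1.

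No member of the other groups was called. For eIF2 and eIF2B the log2 ratios ran between -0.30, in Eif2b3, and 0.10, with -0.18 in Eif2b4; for the kinases between -0.27 in Eif2ak4 (GCN2, the sensor of uncharged tRNA) and 0.17 in Eif2ak2 (PKR, the sensor of double-stranded RNA). Eif1ad had 0.20 and Eif1, which guards start codon choice, 0.14. Eif4ebp1, the 4E-binding protein that blocks eIF4G from eIF4E, had 0.17 ± 0.10 and was the most read of the regulators, at 1545 CPM in set 1 and 1377 CPM in set 2. Eif4g1 and Eif4g3, whose short exons are described above, had log2 ratios of 0.04 ± 0.10 and 0.05 ± 0.12. Eif4a2 had -0.13 and Eif4enif1 -0.09, and Eif5a had 0.04 and Eif6 0.08. These small ratios moved with single libraries. With each library left out in turn, Eif2ak4 ran between -0.49 and -0.11, Eif2ak2 between 0.09 and 0.23, Eif2b3 between -0.43 and -0.15 and Eif2b4 between -0.29 and -0.11. Eif1ad ran between 0.09 and 0.27, Eif1 between 0.08 and 0.20, Eif4ebp1 between 0.065 and 0.25 and Eif4a2 between -0.22 and -0.03. Eif6 stayed positive, between 0.0033 and 0.17, while Eif4enif1 (-0.17 to 0.02) and Eif5a (-0.08 to 0.15) changed sign. The ratio also depended on the events that stand for the gene. Summed over all events of the gene, Eif2b3 had -0.06 and Eif4enif1 -0.23, both outside the ranges above. The other totals with a range above stayed within it. Without set 1 library 1 the ratio was -0.49 for Eif2ak4, 0.09 for Eif1ad, -0.03 for Eif4a2, 0.02 for Eif4enif1, 0.13 for Eif5a and 0.15 for Eif6.

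**Figure D4:**
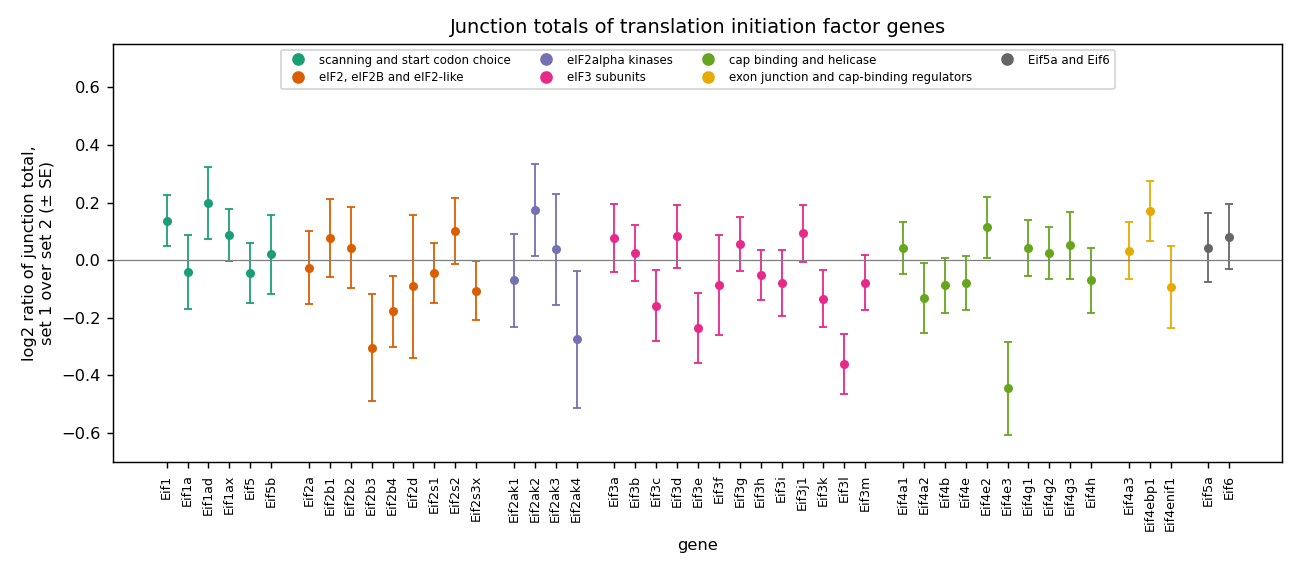
Log2 ratio of junction totals (set 1 over set 2, vertical axis) with its SE for each of the 47 genes, grouped and coloured by role. The ratios run between -0.44 in Eif4e3 and 0.20 in Eif1ad, and no gene had an adjusted p under 0.05.

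Of 36 other genes of the initiation pathway (poly(A)-binding proteins and their partners, mTOR signalling and eIF4E or eIF4G partners among them), 30 were in the table with 179 events, and the authors' table and the quasi-binomial test each called 0 of these (0.645% and 0% of all events). None of the 30 totals was called by limma, with a median log2 ratio of -0.04 and 3 at an unadjusted p under 0.05 (1.06% and 9.45% of all genes). Paip1, which links the poly(A)-binding protein to the cap complex, had 192.4, 99.4 and 89.3 CPM in set 1 and 214.1, 181.0 and 178.2 CPM in set 2, a log2 ratio of -0.67 ± 0.22 (limma, adjusted p = 0.261). The libraries overlapped through set 1 library 1. Paip2, an inhibitor of the poly(A)-binding protein, had a log2 ratio of -0.22 (adjusted p = 0.5), and Rheb, the activator of mTORC1, one of 0.27 (adjusted p = 0.397).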

How the data were processed

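Total RNA was taken up with Trizol and made into libraries with an NEBNext Ultra kit, per the labels' protocols; the submitters' processing notes name HISAT2 2.1.0, Bowtie2 2.2.3, HTSeq 0.6.0 and mm10, with no role for any. The authors' deposited table has the layout of rMATS, per the file headers: whole-number junction counts per library, an inclusion level (a fraction), a p-value, an adjusted p and a difference per event; for the caller's version and its annotation, none was given in the sources used. Deposited levels were recomputed from the counts, with a largest gap of 0.0005. The authors' adjusted p was not taken jointly over all kinds of event. A skipped exon of Eif4g1 with an authors' p of 0.00217 had an adjusted p of 0.114. A retained intron of Eif4a1 with the larger authors' p of 0.00339 had 0.0889. The members and gene lists were chosen with earlier results of these data known.

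The planned count test was not run. The deposited counts stand as lists of 3 libraries per cell and were split by library for the tests below, so the layout did not prevent it. A moderated quasi-binomial test, planned as an alternative, took its place (R 4.3.3, limma 3.58.1). It was run on all events with a mean of 20 or more reads, with a dispersion moderated along the reads of the rarer form, a prior from events with 20 or more such reads, and Benjamini-Hochberg adjustment over all kinds of event. That prior was chosen after one from 5 or more reads had been run, which called 11 of all events and 0 members. The moderated dispersion was not let fall below that of binomial counts. An event was called with an adjusted p under 0.05 and a difference of 0.10 or more. Junction totals were scaled by the library sum and tested with limma and a mean trend on log2(CPM + 1), over 8285 genes. On simulated skipped exons the quasi-binomial test found 7, 20, 33 and 44 of 50 exons whose level was moved by 0.1, 0.2, 0.3 and 0.4, with 0 false calls. The simulation used a dispersion of 2 and moved only exons that started at a middle level. Recovery near full inclusion, where most members lie, was not measured. Of the unchanged exons, 2.56% had an unadjusted p under 0.05 in that test. On simulated totals limma found 46 of 67 genes changed 1.5-fold, with 11 false calls of 8085.

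Named events were those called in the deposited table, up to 6 rises and 6 falls of largest size without overlap, the 6 of smallest p, and the most read partly included event of each role; named totals were the 2 of largest size per role, and in the other lists those called or at an unadjusted p under 0.05. Eif4h, Eif2d, the 107-base Eif4a2 exon, the Eif4g1 acceptor, the Eif4g3 21-base exon the Eif2b4 acceptor, the more read 140-base Eif4a2 event, the Eif5a donor and the totals of Eif4g1 and Eif4g3 were added after their values were seen. Alternatives were other tests, filters, priors and scalings, and each library left out. Part of the list of markers of other cell types is not reported here.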

Additional observations from a re-analysis of the deposited data

How the results depend on the processing

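No paired analysis was possible because the columns carry no replicate numbers of the labels. The planned negative-binomial count tests and their scalings were not run. Under each alternative that was run, 0 member events were called by this work. The spread prior along the total count, the prior from 5 or more rarer reads and the median-of-ratios scaling were added after seeing the data. Over all events, the prior along the total count called 1 event, the prior from 5 or more rarer reads 11 and limma 0. The authors' 4 calls became 1 (Eif4enif1) at an adjusted p under 0.01, 0 at a difference of 0.20 or more, and 5 with no minimum. Junction totals gave 0 to 1 calls with a library left out, the 1 being Eif3l without set 1 library 1. Of 377 values of 35 named results under alternatives, 367 kept direction and side of the threshold, 1 crossed it (Eif3l, -0.4152) and 9 changed sign, each with a library left out: Eif2s3x mutually exclusive exons to 0.0159 and 0.0051 (range -0.0419 to 0.0159), the second Eif3h pair to 0.0065 and 0.0041 (range -0.01 to 0.0065), the 94-base Eif5a exon to 0.0307 (range -0.0427 to 0.0307), the Eif4enif1 total to 0.0245 and 0.0141 (range -0.1714 to 0.0245), and the Eif5a total to -0.0432 and -0.0796 (range -0.0796 to 0.1454). Their cause was not tested. The differences of Eif4e2 and Eif4enif1 rest on at most 22 and 9 reads of the rarer form in a library; the part of depth in their p-values was not tested.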
